A study of Eublepharis macularius with 8 samples.

Results

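The mitochondrial calcium uniporter genes examined here are MCU, MCUB, MICU2, MICU3, SMDT1 and LETM1, 6 of the 22407 genes with a RefSeq symbol in the deposited table. They were picked by exact gene symbol, and this group of genes was chosen on the difference between functional and developing teeth with earlier results of these data known. Their values in that contrast are therefore a description. All 6 passed the filter on low counts, which left 15491 genes. The study sequenced RNA from whole teeth of the adult leopard gecko, Eublepharis macularius, whose teeth are shed and replaced for as long as it lives, and compared functional with developing teeth in 4 libraries each. Females gave the libraries numbered 1 to 3, each from 3 pooled teeth. Library 4 was male, from 10 teeth in the functional and 11 in the developing group. The labels name no strain, genotype, treatment or age beyond adult. Their titles number the libraries of a group as biological replicates. They do not say which animals gave the female libraries, so whether these came from different animals is not known here.

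The uniporter is the channel of the inner mitochondrial membrane through which calcium enters the matrix, driven by the membrane potential. MCU forms its pore, MCUB is an MCU paralog that enters the same complex and lowers its activity, and SMDT1 encodes EMRE, the small subunit that the animal channel needs in order to conduct. MICU2 and MICU3 are calcium-sensing proteins with EF-hands that help set when the channel opens, and LETM1 is a separate cation-proton exchanger of the same membrane. These roles are known from mammals. The cells that form enamel and dentin move large amounts of calcium, and mitochondria buffer part of the calcium that enters a cell and use it to tune matrix dehydrogenases.

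Libraries held between 14144573 and 30935120 estimated counts, and members between 93 and 1774 counts in a library. Levels are given as CPM, counts relative to library sizes scaled by TMM (a trimmed mean of gene ratios between libraries). Functional libraries had factors of 0.752 to 0.853, and developing ones of 1.10 to 1.39. Type I collagen (COL1A1 and COL1A2) took 29.2% to 33.2% of counts in functional libraries, 20.6% and 18.6% in developing replicates 1 and 2, and 5.73% and 4.37% in developing replicates 3 and 4. All 8 odontoblast markers and 6 of 8 ameloblast markers had a row, with none at 0 in every library. Transcript lengths were not used here, so levels are compared between libraries and not between genes. In whole teeth, fewer cells of a type and less RNA per cell cannot be told apart.

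MCUB, the dominant-negative paralog, was lower in functional teeth, whereas the groups overlapped for the pore gene MCU. MCUB stood at 28.2, 26.7, 30.0 and 30.6 CPM in functional replicates 1 to 4 and at 66.2, 66.1, 73.6 and 61.4 CPM in developing replicates 1 to 4. Every functional library lay below every developing library, with a gap between groups wider than the range within either of them. The means were 28.9 ± 1.76 CPM (SD, n = 4) and 66.8 ± 5.01 CPM, a log2 fold change, functional minus developing, of -1.21 ± 0.11 (SE), or a level 2.31-fold higher in developing teeth. By replicate number, the difference in log2 CPM was -1.23, -1.30, -1.29 and -1.0, where the sign follows from the lack of overlap. In edgeR's quasi-likelihood test over all genes MCUB had the fifth smallest p of 15491 genes (rank 5, Benjamini-Hochberg adjusted p = 0.00947). That call was known when the genes were chosen and is given as a description.

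**Figure D1:**
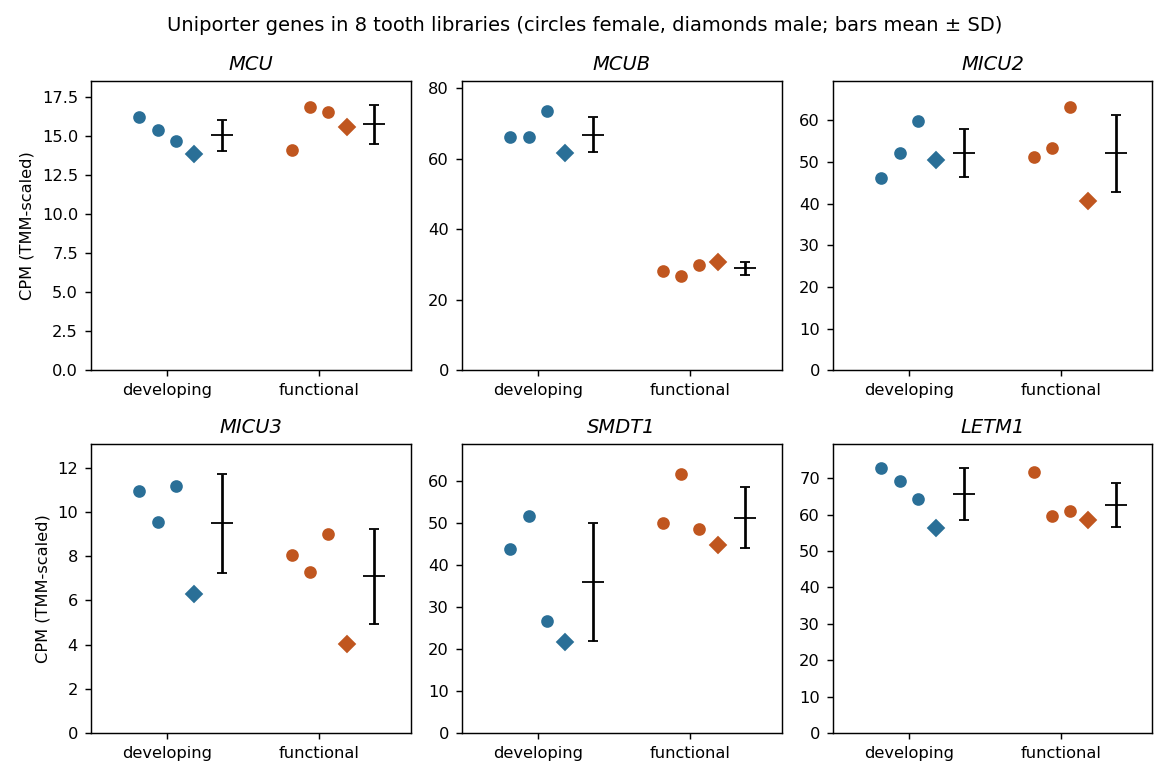
Level of each uniporter gene (y axis, CPM on TMM-scaled library sizes, from 0) in the developing and functional libraries (x axis); circles are female and diamonds male libraries, and the bars show mean ± SD over 4 libraries. MCUB is at 61.4 to 73.6 CPM in developing and 26.7 to 30.6 CPM in functional teeth, while the groups overlap for the other members.

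MCUB was 1 of 6 members called lower, where 312 of 15491 genes (2.01%) were lower and 124 (0.8%) higher in functional teeth at an adjusted p under 0.05. In 8.6% of all genes every functional library lay below every developing library, as MCUB did, and in 6.42% every functional library lay above. Since the contrast was used to choose the genes, nothing is read from these shares. Without any single one of functional replicates 1 to 4 or developing replicates 3 and 4 the counts over all genes fell to between 2 and 45 higher and between 5 and 123 lower. MCUB kept its call without each of the 8 libraries in turn (adjusted p between 0.0122 and 0.0485, log2 fold change between -1.15 and -1.24). It missed the threshold among the 6 female libraries alone (-1.28 ± 0.12, adjusted p = 0.0519), and without developing replicates 3 and 4 (-1.18 ± 0.12, adjusted p = 0.0571).

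MCU had 14.1, 16.9, 16.5 and 15.6 CPM in functional and 16.2, 15.4, 14.7 and 13.9 CPM in developing replicates 1 to 4. The groups overlapped, with means of 15.8 ± 1.24 and 15.1 ± 0.996 CPM and a log2 fold change of 0.07 ± 0.11. Both pore genes varied little between libraries of a group. The pooled within-group SD of log2 CPM was 0.106 for MCU and 0.098 for MCUB, and 95.5% and 96.5% of the 9852 genes at 10 CPM or more had a larger one.

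The ratio of MCUB to MCU counts within a library does not depend on how libraries are scaled, and it separated the groups. There were 2.0, 1.58, 1.81 and 1.97 MCUB counts per MCU count in functional replicates 1 to 4, and 4.08, 4.30, 5.0 and 4.43 in developing replicates 1 to 4. The means were 1.84 ± 0.188 and 4.45 ± 0.394 (SD, n = 4), with no overlap. Because transcript lengths differ between genes, the ratio does not give the number of MCUB transcripts per MCU transcript, and its difference between libraries is what is compared. The ratio of MICU2 to MCU (3.31 ± 0.538 in functional and 3.48 ± 0.511 in developing teeth) overlapped between groups, as did those of SMDT1 to MCU (3.26 ± 0.406 and 2.36 ± 0.825) and LETM1 to MCU (4.01 ± 0.721 and 4.35 ± 0.204). MCUB counts per SMDT1 count, set against the EMRE gene instead, were 0.432 to 0.682 in functional and 1.28 to 2.82 in developing libraries, without overlap. These ratios reuse the MCUB levels known when the genes were chosen. Their separation is a description and not a further result, and the share of gene pairs that separate was not counted.

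**Figure D2:**
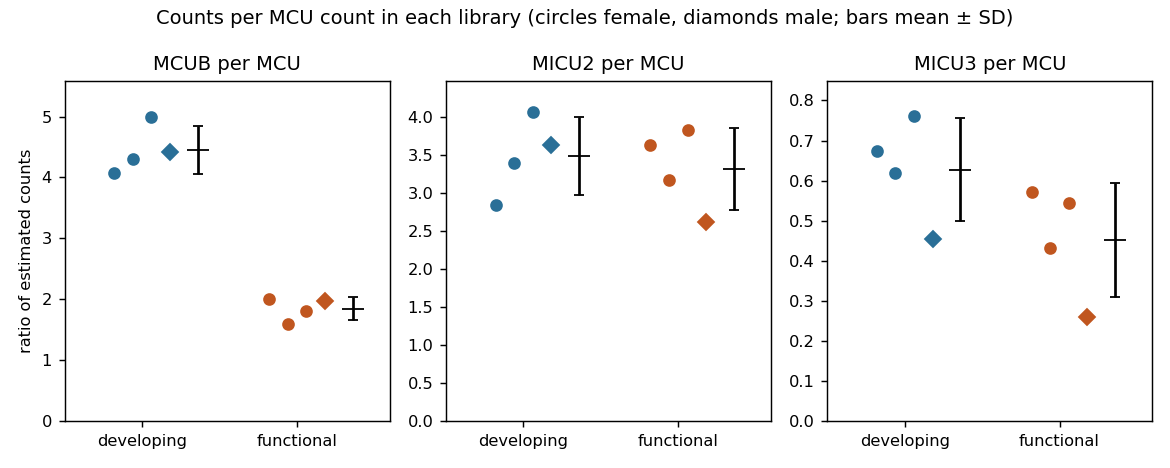
Estimated counts of MCUB, MICU2 and MICU3 per MCU count (y axes, ratio from 0) in each library of developing and functional teeth (x axis); circles are female and diamonds male libraries, and bars show mean ± SD over 4 libraries. MCUB per MCU lies between 4.08 and 5.0 in developing and between 1.58 and 2.0 in functional teeth, and the other ratios overlap between groups.

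Summed levels of markers of several cell types also stood apart between the groups, and their part in the MCUB difference was not tested. Over all 15491 genes edgeR called 2.81% in either direction, and 22.3% had an unadjusted p under 0.05. DESeq2 called 720 genes higher and 986 lower in functional teeth among 19892 genes. The summed level of 6 ameloblast markers (of 8 listed; KLK4 and ODAM were not analysed here) was 55.2 to 1239 CPM in functional and 5208 to 33411 CPM in developing libraries, and edgeR called 1 and DESeq2 6 of the 6. The 7 cell cycle markers with a row, of 8 listed, summed to 29.9 to 59.3 CPM and 79.1 to 228 CPM, with 4 called by edgeR and 7 by DESeq2. The 8 odontoblast markers, of which edgeR called 1 and DESeq2 5, summed to 434014 to 474109 CPM in functional and 41222 to 207953 CPM in developing libraries. COL1A1 and COL1A2 made up 82.0% to 89.5% of that sum, and the 6 other markers summed to 45433 to 64617 CPM and 7434 to 28394 CPM. Macrophage markers (8 of 8 with a row, 3 called by edgeR and 6 by DESeq2) overlapped in their sums, at 160 to 476 CPM in functional and 86.1 to 220 CPM in developing libraries. Dental epithelium markers (5 of 8 with a row, 1 called by edgeR and 3 by DESeq2) also overlapped, at 230 to 431 CPM and 342 to 1155 CPM. So did red cell markers (2 of 6 with a row, 0 called by either), at 79.3 to 151 CPM and 57.8 to 206 CPM. Odontoclast markers (8 of 8) summed to 367 to 1816 CPM and 127 to 309 CPM, and endothelial markers (8 of 8) to 105 to 173 CPM and 42.7 to 98.9 CPM, functional before developing. In both the odontoclast and the endothelial list edgeR called 0 markers, 7 of 8 had an unadjusted p under 0.05, and DESeq2 called 5 odontoclast and 3 endothelial markers. None of these markers was at 0 in every library. Within the developing group the ameloblast sum ranged 6.42-fold, the odontoblast sum 5.04-fold, the cell cycle sum 2.88-fold and MCUB 1.20-fold. Within the functional group the ameloblast sum ranged 22.4-fold, the odontoblast sum 1.09-fold, the cell cycle sum 1.98-fold and MCUB 1.14-fold.

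**Figure D3:**
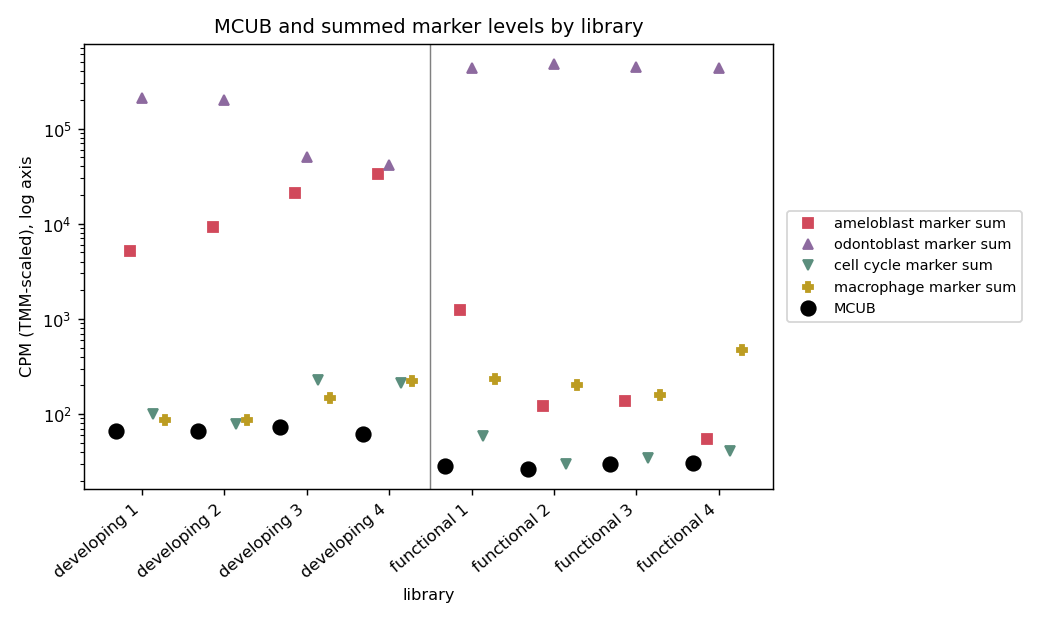
MCUB and the summed levels of ameloblast, odontoblast, cell cycle and macrophage markers (y axis, CPM on TMM-scaled library sizes, log scale) in each of the 8 libraries (x axis; points are shifted sideways for legibility). In developing libraries MCUB lies between 61.4 and 73.6 CPM and the ameloblast sum between 5208 and 33411 CPM.

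The gatekeeper genes showed no difference of the size of that of MCUB. MICU2, the partner that raises the calcium threshold of the channel, had 51.1, 53.4, 63.2 and 40.6 CPM in functional and 46.1, 52.1, 59.8 and 50.4 CPM in developing replicates 1 to 4. Its log2 fold change was 0.00 ± 0.16, from means of 52.1 ± 9.25 and 52.1 ± 5.73 CPM, and the groups overlapped. The levels of the pore genes MCU and MCUB correlated at -0.33 over the 8 libraries (Pearson's r of log2 CPM), and those of MICU2 and MICU3 at 0.63, in libraries that share their scaling.

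MICU3, a gatekeeper paralog that in mammals is found mainly in nerve and muscle and enhances uptake, was the member with the lowest counts, between 93 and 267 per library. It stood at 8.07, 7.30, 8.99 and 4.04 CPM in functional and 10.9, 9.53, 11.2 and 6.31 CPM in developing replicates 1 to 4. The lowest library of each group was the male one, and the groups overlapped through the male developing library. Among females, the functional libraries (7.30 to 8.99 CPM) lay below the developing ones (9.53 to 11.2 CPM). The log2 fold change was -0.42 ± 0.29. By replicate number, which is not shown to mark pairs, the difference was negative in 4 of 4 numbers. The shares of all genes that behaved in these ways were not counted, so nothing is read from either. Without functional replicate 4 the log2 fold change was -0.22 ± 0.23. With sex as a covariate it was -0.44 ± 0.15, and among the female libraries alone -0.38 ± 0.17. MICU3 was called in none of these fits.

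The comparison of male with female libraries was not used to choose the genes. It cannot be told apart from the number of teeth per sample, which was 10 or 11 in the male and 3 in the female libraries. The male libraries also carry later sample numbers in the series, apart from the run of the female ones. Whether they were prepared or sequenced as a separate batch is not known here, and sex could not be told apart from one. The RNA integrity number was also lowest in the male library of each group, at 9.1 against 9.2 to 9.6 in functional and 8.8 against 9.2 to 9.6 in developing teeth, and its part in the male and female difference was not tested. MICU3 was lower in the male libraries by a log2 difference, male minus female, of -0.87 ± 0.18 (SE) in a model with tissue (edgeR's quasi-likelihood test over all genes, Benjamini-Hochberg adjusted p = 0.0363). Each group held 1 male library, and the fit took these libraries as independent. This p-value therefore does not measure the spread among males within a tissue. For MICU3 the male library was the lowest in both groups. The same held for SMDT1 and LETM1, which were not called, and the share over all genes was not counted. MICU3 was the only 1 of 6 members called, and over all genes 162 (1.05%) were lower and 563 (3.63%) higher in male libraries. Of the 6 fits that left out a female library, 1 kept the call (without developing replicate 2, adjusted p = 0.0493), and the adjusted p in the other 5 was 0.0563 to 0.0818. Leaving out a male library leaves 1 male sample, with the spread taken from the female libraries alone and that sample assumed to vary like them. The log2 difference of MICU3 was then -0.74 ± 0.25 without functional replicate 4 (adjusted p = 0.321) and -1.03 ± 0.27 without developing replicate 4 (adjusted p = 0.156). With 1 male sample these fits called 4 and 266 genes, against 725 with both male libraries.

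The same order held in the ratios to MCU and to MICU2, which need no scaling. They reuse the MICU3 counts of the call above and are a description. MICU3 counts per MCU count were 0.26 in the male and 0.433 to 0.572 in the female functional libraries, and 0.454 in the male and 0.62 to 0.761 in the female developing libraries. Per MICU2 count they were 0.0995 in the male against 0.137 to 0.158 in the female functional libraries, and 0.125 against 0.183 to 0.238 in developing libraries. Per SMDT1 count the male library was not the lowest in developing teeth. It had 164 MICU3 and 566 SMDT1 counts, where developing replicate 2 had 207 and 1122. The Schwann cell and neuron markers with a row (7 of 8, none at 0 in every library) summed to 184 CPM in the male functional library, above the female ones (98.8 to 145 CPM), and to 254 CPM in the male developing library, within the female range (149.6 to 260.1 CPM). Skeletal muscle markers (6 of 8 with a row, with MYL1 and TNNT3 at no more than 3 counts in any library) summed to 3.52 CPM in the male functional library against 2.65 to 3.87 CPM in females. They summed to 2.61 CPM in the male developing library, against 2.91, 10.1 and 61.2 CPM in developing replicates 1 to 3. The part of these cells in the MICU3 difference was not tested.

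No other member was called between male and female libraries, and the log2 differences were -0.09 ± 0.13 for MCU, -0.02 ± 0.12 for MCUB, -0.25 ± 0.16 for MICU2, -0.56 ± 0.27 for SMDT1 and -0.21 ± 0.13 for LETM1. Whether the functional minus developing difference itself departed between the male pair and the female libraries was tested as an interaction, with the spread taken from the female libraries. For MCUB the interaction was 0.27 ± 0.23 (adjusted p = 0.937), and no member was called. Over all 15491 genes 0 (0%) passed, 515 had an unadjusted p under 0.05, and DESeq2's Wald test called 17.

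SMDT1, the EMRE gene, varied most within developing teeth. Its levels were 43.8, 51.7, 26.6 and 21.8 CPM in developing replicates 1 to 4, and 50.1, 61.8, 48.6 and 44.8 CPM in functional replicates 1 to 4. Developing replicates 3 and 4 were below all other libraries, developing replicate 1 was just under the lowest functional library, and developing replicate 2 lay within the functional range. The means were 51.3 ± 7.32 CPM (functional) and 36.0 ± 14.1 CPM (developing), with a log2 fold change of 0.51 ± 0.28. By replicate number the difference in log2 CPM was 0.19, 0.26, 0.86 and 1.04, positive in 4 of 4 numbers. The share of all genes with the same sign in 4 of 4 numbers was not counted. These levels and signs are those with TMM. With library totals alone the log2 fold change of SMDT1 was -0.03 ± 0.24, where the median of all genes was -0.59. Without developing replicates 3 and 4, an alternative chosen after seeing the data, the log2 fold change was 0.12 ± 0.18. Within developing teeth SMDT1 ranged 2.37-fold, and the libraries where it was low were those with the low type I collagen share. SLC8B1, which encodes the sodium-calcium exchanger NCLX that carries calcium out of mitochondria, was likewise lowest in developing replicates 3 and 4, at 24.0, 26.7, 10.2 and 10.6 CPM in developing replicates 1 to 4 and 23.6 to 31.9 CPM in functional libraries. Pearson's r of SMDT1 with SLC8B1 was 0.96 over the 8 libraries, which share their scaling.

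**Figure D4:**
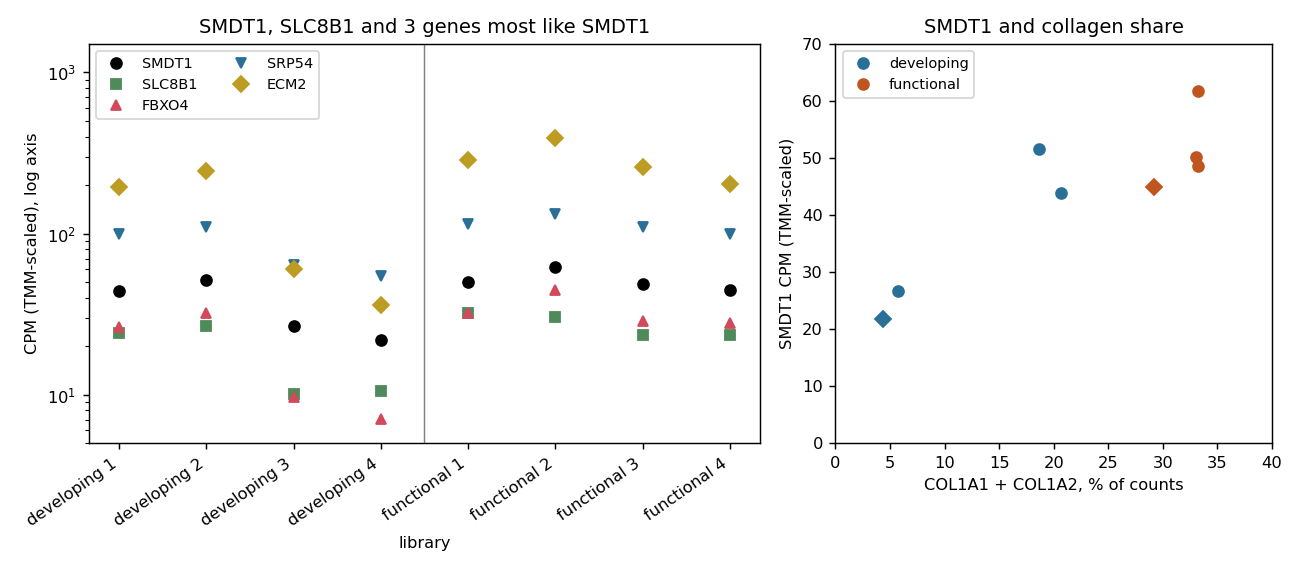
Left, SMDT1, SLC8B1 and the genes most like SMDT1 (FBXO4, SRP54 and ECM2) in each library (y axis, CPM on TMM-scaled library sizes, log scale). Right, SMDT1 (y axis, CPM) against the share of counts from COL1A1 and COL1A2 (x axis, percent), with circles female and diamonds male. Developing replicates 3 and 4 hold 26.6 and 21.8 CPM of SMDT1 at collagen shares of 5.73% and 4.37%.

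LETM1, the exchanger, had 71.7, 59.5, 60.9 and 58.4 CPM in functional and 72.7, 69.3, 64.3 and 56.4 CPM in developing replicates 1 to 4. The groups overlapped, with means of 62.6 ± 6.16 and 65.7 ± 7.09 CPM and a log2 fold change of -0.07 ± 0.14. Its deposited values were not whole (1271.238 counts in functional replicate 1, for example), unlike the nearly whole values of the other members. Kallisto divides reads that fit several transcripts, so the level of LETM1 may be less certain. How many of its reads were divided was not measured.

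How libraries are scaled moved all of these values together. With library totals alone, the median log2 fold change of all genes was -0.59. The calls were then 151 higher and 7453 lower, against 124 and 312 with TMM, and with totals that left out COL1A1 and COL1A2 they were 89 and 787 with a median of -0.22. All 6 members had negative values with totals alone, and MCU (-0.52), MCUB (-1.81), MICU3 (-0.99) and LETM1 (-0.65) were called. Relative to the median of all genes, MCUB was at -1.21 with TMM, -1.22 with totals alone and -1.22 without the collagens. MCU was at 0.07 relative to that median in all 3 scalings. A change of scaling shifts all genes by nearly the same amount, so values relative to the median stay nearly constant by construction. They are no check on either gene.

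Over all genes, 3462 of 15491 (22.3%) had an unadjusted p under 0.05 between functional and developing teeth, and 436 (2.81%) were called in either direction. The edgeR counts in the partner lists that follow stand against these shares. The DESeq2 calls in them stand against the 720 genes higher and 986 lower that DESeq2 called among 19892.

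Genes that regulate or assemble the uniporter gave no call. Of 8 tested regulators, 0 were called and their median log2 fold change was -0.04, where the median of all genes was 0.00. By edgeR 1 of the 8 had an unadjusted p under 0.05, and DESeq2 called 0 of them. That gene was PHB1, a prohibitin scaffold of the inner membrane, with 51.5 ± 3.07 CPM (functional) and 64.6 ± 6.91 CPM (developing; log2 fold change -0.33 ± 0.13, adjusted p = 0.182) and no overlap between groups. The other prohibitin gene, PHB2, had a log2 fold change of -0.03 ± 0.14. MAIP1, which helps EMRE reach the complex, had one of 0.28 ± 0.15 (adjusted p = 0.296). The genes of the m-AAA protease that degrades unassembled EMRE were at -0.06 ± 0.16 for AFG3L2 and 0.00 ± 0.15 for SPG7. The scaffold gene MCUR1 (-0.09 ± 0.16) and the protease genes YME1L1 (0.04 ± 0.13) and OMA1 (-0.27 ± 0.20) did not pass, with adjusted p-values of 0.78, 0.892 and 0.462.

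The list of mitochondrial calcium exit and exchange, which also held UCP2 and TMBIM4, had 6 tested genes. Of these, 0 were called by edgeR and 0 by DESeq2, with 0 at an unadjusted p under 0.05 and a median log2 fold change of 0.22. SLC8B1 had the largest value, 0.61 ± 0.33 (adjusted p = 0.318), from 27.3 ± 4.38 CPM (functional) and 17.9 ± 8.70 CPM (developing). TMEM65, reported to act with NCLX, was at -0.07 ± 0.17, and GHITM, a calcium-proton exchanger of the inner membrane also called TMBIM5, at 0.24 ± 0.14. LETM2, the LETM1 paralog, was at 0.15 ± 0.16, TMBIM4 at 0.26 ± 0.18 and the uncoupling protein gene UCP2 at 0.20 ± 0.64.

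**Figure D5:**
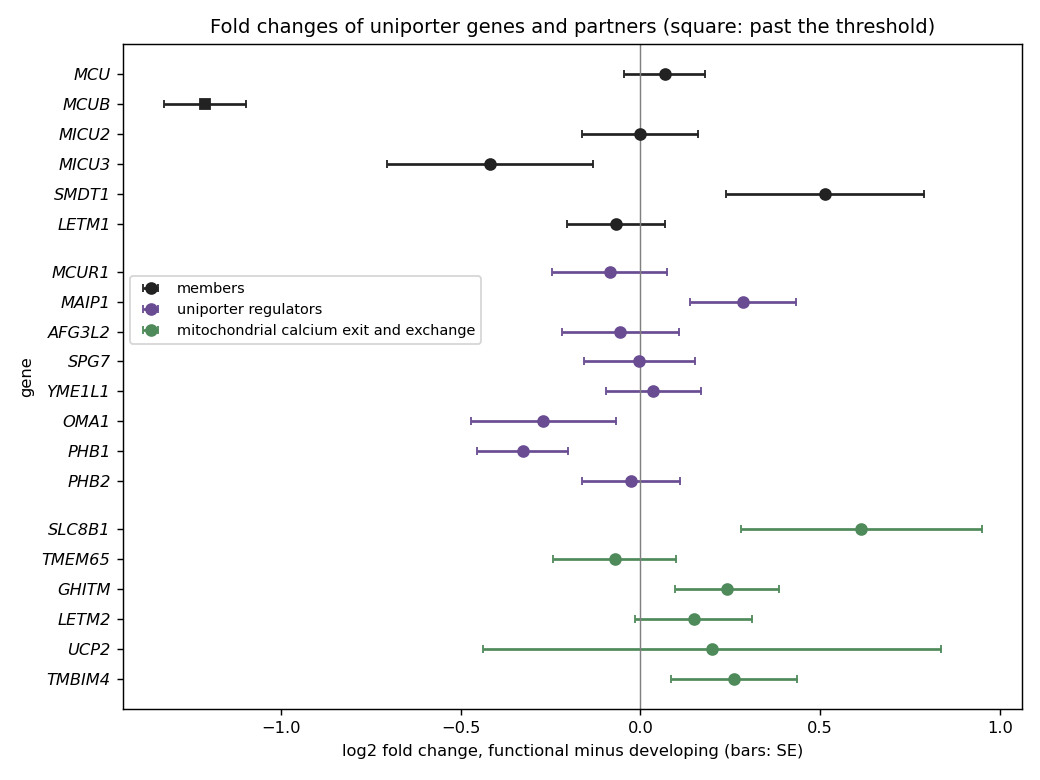
Log2 fold change, functional minus developing (x axis, bars SE), of the 6 uniporter genes, the uniporter regulators and the mitochondrial calcium exit and exchange list (y axis). The square marks a gene past the adjusted p threshold. MCUB lies at -1.21, and all other genes shown lie between -0.42 and 0.61.

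Calcium delivery to mitochondria was read from 17 genes of the outer membrane and of contacts with the endoplasmic reticulum, of which 0 were called and 1 had an unadjusted p under 0.05 (median log2 fold change -0.06). ITPR1, an inositol trisphosphate receptor that releases calcium from that store, stood at 4.26 to 5.07 CPM in functional and 10.9, 6.40, 22.9 and 13.8 CPM in developing replicates 1 to 4. The groups did not overlap, and its log2 fold change of -1.54 ± 0.35 missed the threshold in edgeR (adjusted p = 0.0584) and passed DESeq2's Wald test. The outer membrane channel gene VDAC3 differed by 0.44 ± 0.21 on the log2 scale and did not pass (adjusted p = 0.271).

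Among 16 genes of plasma membrane entry, pumps and buffers, 1 was lower and 0 higher in functional teeth, 6 had an unadjusted p under 0.05, and the median log2 fold change was -0.18. The lower gene was CALB1, the cytosolic calcium buffer calbindin, with 9.08 ± 2.69 CPM (functional) and 257 ± 189 CPM (developing) and a log2 fold change of -4.82 ± 0.63 (adjusted p = 0.0207). Its call was lost, leaving 0 in this list, without any 1 of functional replicates 2, 3 and 4 or developing replicate 3, and among the female libraries alone. With 17 genes of this list in its fit, DESeq2 called CALB1, ATP2B1 and ATP2B2 lower and the entry channel gene ORAI3 higher. In edgeR the calcium pump gene ATP2B2 had 0.301 ± 0.165 and 1.42 ± 0.653 CPM and did not pass (adjusted p = 0.0674).

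The list of calcium-sensitive matrix metabolism also held genes around these enzymes, such as the kinase gene PDK3. This list and that of permeability transition genes gave 0 calls among 16 and 10 tested genes. They had 5 and 2 genes at an unadjusted p under 0.05 and median log2 fold changes of 0.04 and 0.21. IDH3A, IDH3B and IDH3G of the matrix list had no row of that symbol and were not analysed here. DESeq2 called 1 gene lower in each list, PDK3 and BCL2. PDK3, a kinase that inhibits pyruvate dehydrogenase, had 32.9 ± 6.71 CPM (functional) and 57.3 ± 13.2 CPM (developing), a log2 fold change of -0.80 ± 0.21 (edgeR, adjusted p = 0.0817). SLC25A13, a calcium-regulated aspartate-glutamate carrier, was at -0.35 ± 0.11 on that scale (adjusted p = 0.11). The apoptosis inhibitor gene BCL2 had 0.651 ± 0.290 and 2.87 ± 1.48 CPM (adjusted p = 0.073), and the adenine nucleotide carrier gene SLC25A5 had 466 ± 110 and 314 ± 52.4 CPM (adjusted p = 0.157).

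Genes that follow the amount of mitochondria gave 0 calls among 17 tested, with 2 at an unadjusted p under 0.05, 0 by DESeq2 and a median log2 fold change of 0.09. The mitochondrial RNA polymerase gene POLRMT was at -0.34 ± 0.12 (adjusted p = 0.144), and SDHB, a subunit of respiratory complex II, at 0.62 ± 0.27 (adjusted p = 0.215). Of 9 tested regulators of mitochondrial biogenesis 0 were called, 1 had an unadjusted p under 0.05, DESeq2 called 0 and the median was 0.09. The nuclear receptor gene ESRRA was at 0.45 ± 0.19 (adjusted p = 0.218) and TFB2M, a mitochondrial transcription factor, at -0.44 ± 0.21 (adjusted p = 0.263). Over the 8 lists of partners, 1 of 98 genes tested was called, and with library totals alone 58 were called lower, where 48.1% of all genes were lower in that scaling.

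Likeness of pattern was taken as Pearson's r of log2 CPM over the 8 libraries, against 8295 other genes with a symbol at 10 CPM or more (8296 for MICU3, itself below that level), and is a description of libraries that share their scaling. The genes most like MCUB were OLFML1, a secreted olfactomedin-like protein (r = 0.978), HS3ST3B1, a heparan sulfate sulfotransferase (0.968), and NHS, whose loss in humans causes cataract and dental anomalies (0.964). All were lower in every functional library than in any developing library. HS3ST3B1, for example, had 6.52 to 11.5 CPM in functional and 58.6 to 71.3 CPM in developing libraries. Within groups their correlation with MCUB was 0.24, -0.56 and 0.38, so the likeness lies in the step between groups. In all, 117 genes had r above 0.9 with MCUB.

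MCU, which did not differ between groups beyond their spread, was most like NDUFC1 (r = 0.956), DUSP16 (0.955) and NDUFV2 (0.949). NDUFC1 and NDUFV2 encode subunits of respiratory complex I, and DUSP16 a phosphatase of stress kinases. For MICU3 the most alike were KLHL15, an adaptor of a ubiquitin ligase (0.98), the adhesion receptor gene ADGRA3 (0.976) and PDHB, a subunit of pyruvate dehydrogenase (0.962). PDHB was likewise lowest in the male library of each group, at 41.4 CPM against 51.1 to 55.8 CPM in functional and 45.7 CPM against 52.3 to 58.2 CPM in developing teeth.

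SMDT1 resembled many genes: 618 had r above 0.9, and FBXO4, SRP54 and ECM2 reached 0.997, 0.997 and 0.996. SRP54 is part of the particle that guides secreted proteins to the endoplasmic reticulum, and its levels in developing replicates 1 to 4 were 99.0, 110.1, 63.4 and 54.8 CPM. MICU2 was most like FAM184A (0.929), the RNA-binding protein gene FMR1 (0.927) and CAB39 (0.926), and LETM1 most like the ubiquitin ligase gene HECTD4 (0.983), the peroxisomal import gene PEX13 (0.97) and SZRD1 (0.968). The numbers of genes with r above 0.9 were 14 for MCU, 8 for MICU2, 73 for MICU3 and 34 for LETM1.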

How the data were processed

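The authors deposited a table of estimated counts, genes by libraries, without normalization. Kallisto produced it per the submitters' processing notes. Its version, index, annotation and strand setting: not given in the sources used here. The library kit kept strand, per the labels' protocols, and paired reads of 59 bases were taken. Values were rounded to whole numbers (34.2% were not whole). Of 22488 row names 22407 matched a RefSeq symbol (assembly MPM_Emac_v1.0, names only). The 81 others held 0.909% to 1.41% of a library and were not used.

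In R 4.3.3 with edgeR 4.0.16, filterByExpr at default settings kept 15491 genes, and TMM factors were computed. The quasi-likelihood test compared functional with developing teeth with no covariate, male with female libraries in a model with tissue, and their interaction in a model with both. P-values were adjusted by Benjamini-Hochberg over all tested genes with a threshold of 0.05. A standard error is the size of the log2 fold change over the root of the F statistic. Log2 CPM used a prior count of 2. The fit of functional against developing teeth was tested on simulated data with a common dispersion for all genes. The other fits were not tested in this way. DESeq2 1.42.0, other scalings and filters, a replicate block, a sex covariate, female libraries alone and leaving out each library were alternatives, and leaving out developing replicates 3 and 4 was added after seeing the data.

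Deviations from the group means correlated at 0.226, 0.159, 0.308 and 0.678 between libraries of the same number, 1 to 4. All 4 values were over 0.1, and number 4 holds the male libraries. Libraries of unlike number reached 0.413 (functional replicate 3 with developing replicate 1), so these values do not show that the numbers are pairs. The numbers were taken as pairs in the replicate block and in the differences by number, and the main fit had no block. In the other group 4 of 8 libraries correlated best with their own number.

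Named were the 6 members, all genes of the regulator and exit lists, every call and the 2 smallest p of each other list, and the 3 genes most like each member. One gene of the regulator list is not reported here and was left out of that list's counts. The members and lists were chosen with earlier results of these data known. Listed genes without a row of that symbol were not analysed here. No protein, transcript or promoter sequence was used.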

Additional observations from a re-analysis of the deposited data

Results flagged for a closer look

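Among 20 uniporter, regulator and exit genes, 40 groups of 4 libraries were checked for a library that stands apart from the rest, and 3 did; chance flags about 1 in 20 groups. UCP2, the uncoupling protein gene, was high in replicate 3 of both groups. Functional replicate 3 held 39.8 CPM against 12.4 to 15.4 CPM in the other functional libraries, and developing replicate 3 held 42.3 CPM against 7.5, 7.60 and 13.4 CPM in developing replicates 1, 2 and 4. OMA1, a protease gene of the inner membrane, was low in functional replicate 4, the male library, at 3.74 CPM against 5.27 to 5.53 CPM in functional replicates 1 to 3. No member of the group had such a library.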

How the results depend on the processing

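The log2 fold change of MCUB was negative in 18 of 18 alternatives, from -1.15 to -1.81, and MCUB was called in 16. Since its groups did not overlap, leaving out libraries could hardly change the sign. The call was known when the genes were chosen, so these numbers are a description. MICU3 was negative in all 18 (-0.22 to -0.99) and called with library totals alone. The sign changed for MCU in 2 alternatives, MICU2 in 9, SMDT1 in 1 and LETM1 in 1. With the replicate block, which takes the replicate numbers as pairs, 69 genes were higher and 151 lower in functional teeth. MCUB kept its call (edgeR, adjusted p = 0.0378), and no call of a member changed. The log2 fold change with the block was -0.44 ± 0.14 for MICU3 and 0.59 ± 0.18 for SMDT1. Without it these were -0.42 ± 0.29 and 0.51 ± 0.28. By DESeq2 720 genes were higher and 986 lower, 2154 differed between male and female libraries and 17 passed for the interaction. Library totals alone gave 7453 lower, totals without the collagens 787 lower, a sex covariate 246 higher, the female libraries alone 1 higher and 2 lower, and all libraries but developing replicates 3 and 4, chosen after seeing the data, 1 higher and 7 lower. Leaving out 1 library gave 2 to 184 higher and 5 to 457 lower genes. For functional replicates 1 to 4 these pairs were 45 and 123, 7 and 9, 7 and 5, and 2 and 6. Developing replicate 3 left 7 and 22, and developing replicate 4 left 12 and 41. Genes called between male and female libraries numbered 1120 with no filter and 4 to 855 with 1 library left out. The causes of these shifts were not tested. No fit with a replicate block was made for male against female libraries, since the number holds the sex. At 93 to 267 counts per library, MICU3 is the member with the largest counting error.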
